A study of Mus musculus with 10 samples.

Results

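NFAT and calcineurin pathway genes were examined in CUT&Tag libraries of mouse primary cardiac fibroblasts. The members were chosen by gene symbol: the transcription factor genes Nfatc1, Nfatc2, Nfatc3, Nfatc4 and Nfat5, the calcineurin subunit genes Ppp3ca, Ppp3cb and Ppp3r1, the calcineurin inhibitor gene Rcan1, and Dyrk1a, which encodes a kinase that phosphorylates NFAT proteins. These are 10 of the 22473 genes to which the deposited tables assign a region. All regions that a table assigned to a member were used, with the reads in each library. CUT&Tag uses an antibody to bring a transposase to chromatin, so that DNA near the bound protein or mark is tagged and sequenced. The fibroblasts came from mouse heart. TGF libraries were made from cells given TGF-β, a cytokine that activates fibroblasts, and siHK1 libraries from cells transfected with an siRNA against hexokinase 1 (HK1), a glycolytic enzyme, and then given TGF-β. The NC library is labelled as a control with no treatment. A TGF library and an siHK1 library were made with antibodies to H3K9lc (a lactylated lysine in the tail of histone H3), c-JUN, SMAD3 and NFATC2, and NC was compared with TGF for H3K9lc. The H3K9lc library of HK1-depleted cells is titled only SI, and the title of NC names no antibody. Both were placed by the comparison that their labels name. All mouse strains of the study had a C57BL/6J background. Whether the TGF and NC cells received a control siRNA, and the age and number of the mice behind the cells, are not given in the sources used here.

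Each condition was represented by 1 library per antibody. No difference between conditions could be tested, and every value compares libraries. All intervals are 95% intervals of counting error alone, and PCR copies of 1 molecule may make them too narrow. The log2 ratio of a gene or region is the log2 of its reads plus 0.5 in one library over the other, after both libraries were scaled to the same total over all listed regions of the table. It therefore cannot show a gain or loss shared by all regions. A region or gene is called lower or higher below where it differed at least 2-fold and held at least 10 reads over both libraries, with the deeper library scaled down. Nearly all listed regions have a peak in at least 1 of the libraries, so a region with a peak in only one of them was listed through that library. Of all JUN regions with at least 10 reads, 22.3% of those with a peak in TGF only were lower, against 1.18% of those with a peak in both libraries, and 44.0% of those with a peak in siHK1 only were higher, against 1.99%.

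NFAT proteins are transcription factors that wait in the cytoplasm in phosphorylated form. A rise in intracellular calcium activates calcineurin, a phosphatase made of a catalytic subunit (Ppp3ca or Ppp3cb) and a regulatory subunit (Ppp3r1). Calcineurin strips phosphates from the NFATc proteins, which then move to the nucleus and often bind DNA together with AP-1, the dimer that contains JUN. Nfat5 encodes a relative that responds to osmotic stress and lacks the calcineurin-docking control of the others. Rcan1 is a known NFAT target whose product binds and restrains calcineurin, and DYRK1A re-phosphorylates NFAT and so favours its export from the nucleus. In the heart the pathway is known for its part in hypertrophic growth and in fibroblast activation.

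The libraries differed in reads over listed regions, which are not the library depths. For JUN there were 4215447 reads in TGF and 2271336 in siHK1, for H3K9lc 2490853 and 1419023, for SMAD3 563562 and 399897, and for NFATC2 575706 and 354599. NC held 115572 reads in the table that sets it against 2313288 reads of the TGF H3K9lc library. The 10 regions with the most reads took 22.2% of the reads of the NFATC2 TGF library, 19.1% of SMAD3, 8.92% of H3K9lc and 1.75% of JUN. In the JUN TGF library all 8 fibroblast markers and all 4 myofibroblast markers had a promoter region, with 23 to 235 and 59 to 208 reads. Promoter regions were also listed for 2 of 5 cardiomyocyte genes (0 to 84 reads, none for Tnnt2, Actn2 and Myl2), 3 of 4 endothelial genes (0 to 71 reads, none for Kdr), 2 of 4 leukocyte genes (0 to 204 reads, none for Ptprc and Adgre1) and 1 of 4 smooth muscle or pericyte genes (0 to 23 reads). Over all regions, cardiomyocyte genes held 13 to 113 reads and endothelial genes 273 to 851. Leukocyte genes held 0 to 505 and smooth muscle or pericyte genes 37 to 852. For fibroblast and myofibroblast markers these ranges were 151 to 1670 and 59 to 914. The part of other cells in the results was not tested.

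JUN was by far the best covered antibody at these genes. All 10 members had JUN regions, 101 in all over 55.5 kb, with 8635 reads in TGF against 4022 in siHK1. The pooled log2 ratio of siHK1 over TGF was -0.21 (interval -0.26 to -0.16). Nfatc2 alone supplied 3814 of the 8635 reads, and the pooled ratio without Nfatc2 was -0.04. The median over the 10 genes was -0.11, against -0.01 over all genes of the table, and 7 genes lay below 0 and 3 above. No member was called lower or higher as a gene, where 2.91% and 2.47% of all genes with at least 10 reads were. Of the 95 member regions with at least 10 reads, 11 were lower (11.6%, against 8.28% of all such regions) and 6 were higher (6.32%, against 5.61%). A peak was called in both libraries at 46 of the 101 regions, or 45.5% against 49.7% of all JUN regions. Of the 11 lower regions 9 had a peak in TGF only, and all 6 higher ones had a peak in siHK1 only.

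**Figure D1:**
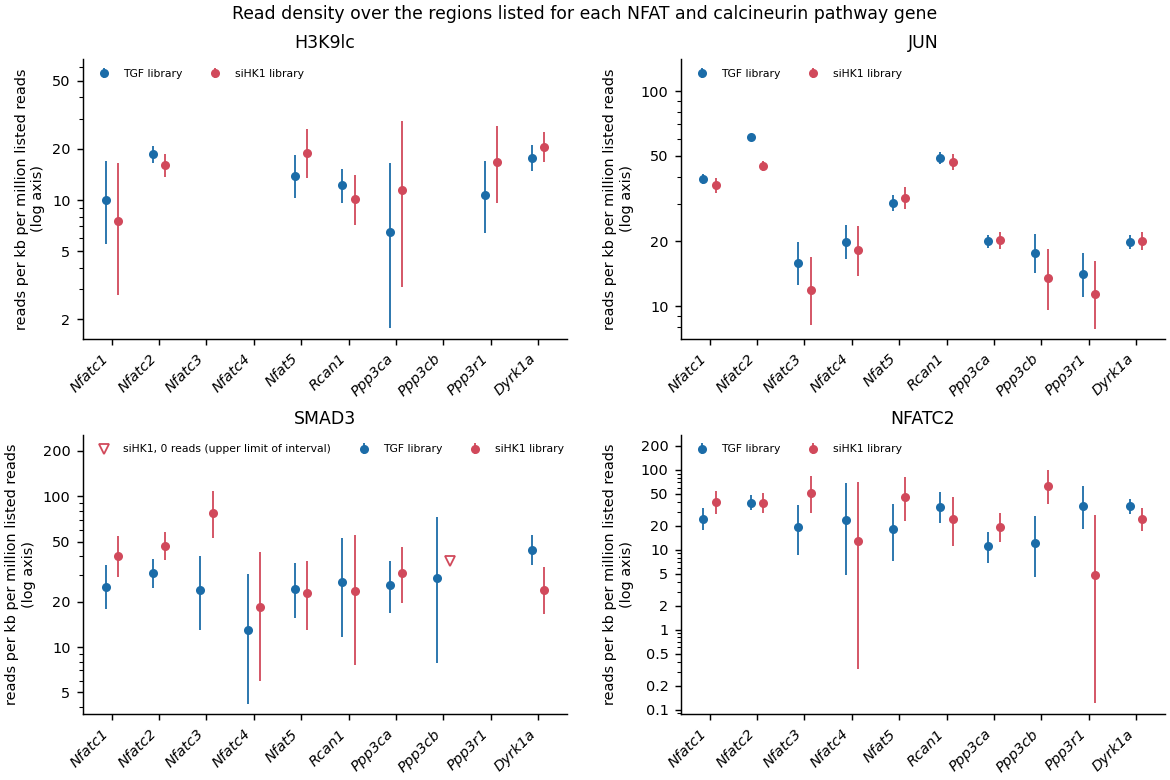
Reads per kb of listed region, scaled to the total of listed reads (log axes), for each member gene in the TGF and siHK1 libraries of 4 antibodies, with exact 95% Poisson intervals as vertical lines. Nfatc2 and Rcan1 had the highest JUN densities, and the SMAD3 and NFATC2 panels have wide intervals because the genes held few reads.

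Per length of listed region, JUN reads in the TGF library were densest at Nfatc2 (259 reads per kb), followed by Rcan1 (206), Nfatc1 (164), Nfat5 (127), Ppp3ca (84.5), Nfatc4 (84.2), Dyrk1a (83.9), Ppp3cb (74.2), Nfatc3 (67.0) and Ppp3r1 (59.3). In siHK1 the raw densities ran from 26.0 at Ppp3r1 to 107 at Rcan1, which stood just above the 102 of Nfatc2. The order of the leading pair therefore changed between the libraries, although their counting intervals per kb overlapped in siHK1.

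Nfatc2, which encodes the NFAT protein that was itself profiled, had 26 JUN regions. They held 3814 reads in TGF and 1502 in siHK1, a log2 ratio of -0.45 (interval -0.54 to -0.37). This was the lowest gene ratio among the members for JUN, and 13.6% of all genes with at least 10 JUN reads had a lower value. The gene lies on the minus strand of chromosome 2 with 2 groups of start sites, the outer at 168601657 and the inner at 168590365 (GRCm38). From the inner start site outward there were 8 regions with 799 reads in TGF and 209 in siHK1, a log2 ratio of -1.04 (interval -1.27 to -0.82). Among these 8 were 5 of the 11 lower JUN regions of the pathway. The 13 regions inside the gene from the inner start site on held 2274 and 1028 reads, a log2 ratio of -0.25 (interval -0.36 to -0.15), and none was called. The 5 regions beyond the 3′ end held 741 and 265 reads (-0.59, interval -0.80 to -0.39), and 1 of them was higher. This split by position was made after the values were seen and is a description.

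The 5 lower regions at Nfatc2 went from 67 to 10 reads (4.32 kb before the inner start site), from 108 to 18 (2.85 kb inside the outer one), and then, upstream of the outer start site, from 100 to 21 (2.15 kb), from 230 to 46 (5.74 kb) and from 102 to 27 (9.16 kb). Their log2 ratios were -1.79, -1.66, -1.33, -1.42 and -1.01. The region from 230 to 46 reads had a peak in both libraries, and the other 4 had a peak in TGF only. The region next to the outer start site itself differed from these neighbours, with 49 reads in TGF and 28 in siHK1 (0.10, interval -0.64 to 0.78). A region 3.08 kb upstream had 94 and 46 reads (-0.13). The outermost, 10.9 kb upstream, had 49 and 13 reads and a ratio of -0.98, just short of 2-fold. The centres of 3 lower regions are shown, those of the 2 with the lowest ratios and that of the one with most reads. AP-1 motifs (TGACTCA, or TGAGTCA on the other strand) and NFAT core motifs (GGAAA, or TTTCC on the other strand) are in capitals.
chr2:168594765-168594964, plus strand, GRCm38: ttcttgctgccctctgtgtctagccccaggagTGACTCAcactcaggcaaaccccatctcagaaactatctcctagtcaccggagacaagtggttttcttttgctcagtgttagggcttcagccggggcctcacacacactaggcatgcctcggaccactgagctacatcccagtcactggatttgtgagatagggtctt
chr2:168598417-168598616, plus strand, GRCm38: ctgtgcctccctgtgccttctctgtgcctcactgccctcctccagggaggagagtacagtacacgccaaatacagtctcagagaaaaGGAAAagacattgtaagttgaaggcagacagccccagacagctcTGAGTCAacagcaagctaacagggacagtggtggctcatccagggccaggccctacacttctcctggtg
chr2:168607750-168607949, plus strand, GRCm38: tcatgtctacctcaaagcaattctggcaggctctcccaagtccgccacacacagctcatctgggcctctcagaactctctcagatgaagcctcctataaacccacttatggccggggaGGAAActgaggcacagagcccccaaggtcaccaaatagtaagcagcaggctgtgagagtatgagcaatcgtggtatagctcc
The first 2 windows hold 1 AP-1 motif each, the second and the third hold 1 NFAT core each, and the third holds no AP-1 motif, although its whole region holds 1 outside the window. All 3 lie in an intron or upstream of the gene. Over the 25 Nfatc2 regions with at least 10 reads, the median log2 ratio was -0.68 for the 8 with an AP-1 motif in the central 200 bp and -0.16 for the 17 without. Across all members the order was the reverse, -0.03 for 29 regions with the motif and -0.16 for 66 without.

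**Figure D2:**
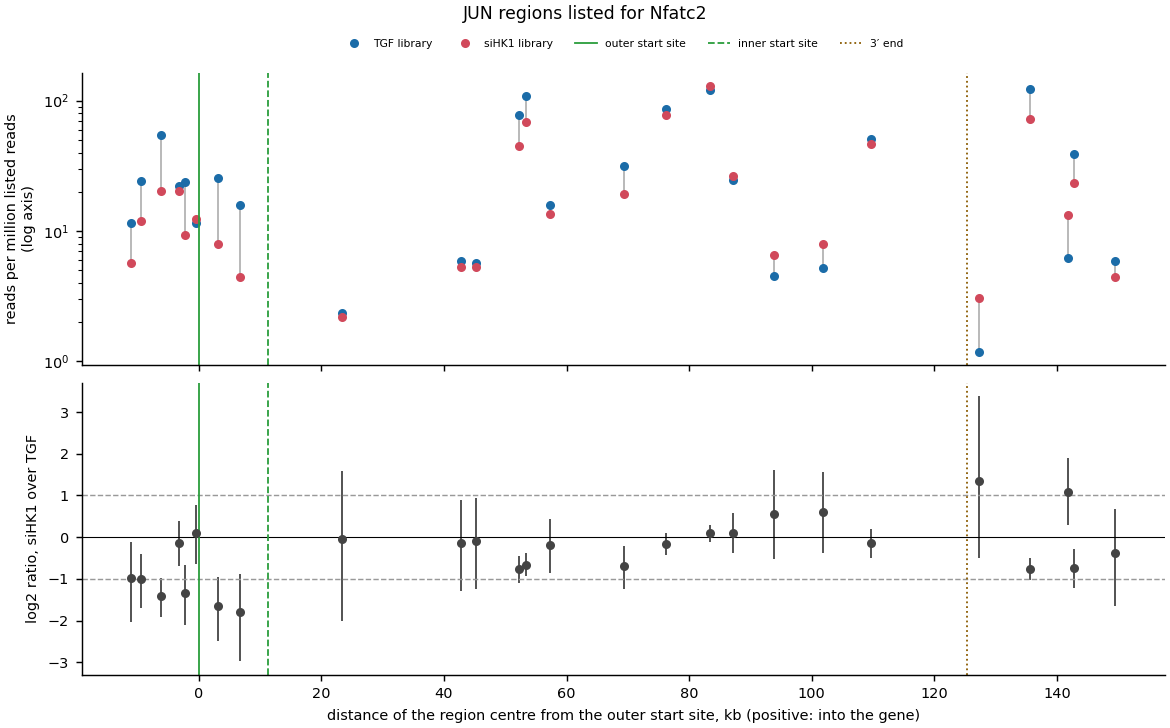
JUN at Nfatc2 by distance of each region's centre from the outer start site, in kb: above, reads in each library scaled to the total of listed reads (log axis), below, the log2 ratio of siHK1 over TGF with its 95% counting interval and dashed lines at 2-fold. The 5 lower regions lie from 9.16 kb before the outer start site to the inner one, and every region beyond the inner start site and inside the gene lies within 2-fold.

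The Nfatc2 regions with most reads moved less. In an intron and UTR stretch 71.5 kb inside the gene, 511 reads in TGF stood against 293 in siHK1 (0.09, interval -0.12 to 0.30). The region with most TGF reads, 520 against 165, lay beyond the 3′ end and was lower but within 2-fold (-0.76, interval -1.03 to -0.51). A pair of regions 41.5 and 40.4 kb inside the gene had 454 against 155 (-0.66) and 325 against 103 (-0.76). The only higher Nfatc2 region had 26 against 30 reads (1.09), also beyond the 3′ end.

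Among the other NFAT genes, Nfatc1, best known for its role in heart valve and osteoclast formation, had 16 JUN regions with 1349 reads in TGF and 679 in siHK1 (-0.10, interval -0.23 to 0.04). Its region of most reads, in an intron 51.8 kb inside the gene, had 380 and 193 reads (-0.08). A pair of intronic regions farther in was lower, with 65 against 13 reads (-1.39) and 34 against 4 (-2.05). Nfat5 had 8 regions with 553 and 315 reads (0.08). Of the 553 TGF reads, 376 came from a region 37.6 kb upstream, with 190 in siHK1 (-0.09, interval -0.35 to 0.16), and without that region the ratio of the gene was 0.39. Small intronic regions of Nfat5 were higher, with 17 against 20 reads (1.12) and 13 against 18 (1.35). Nfatc3 and Nfatc4 had JUN reads mainly at their start sites, 79 against 32 (-0.40, interval -1.05 to 0.20) and, summed over 2 regions, 116 against 57 (-0.13), of which the larger had 74 and 37 (-0.10). The centre of the upstream Nfat5 region is shown because JUN, SMAD3 and NFATC2 all listed a region there, and it holds 1 motif of each kind.
chr8:107255095-107255294, plus strand, GRCm38: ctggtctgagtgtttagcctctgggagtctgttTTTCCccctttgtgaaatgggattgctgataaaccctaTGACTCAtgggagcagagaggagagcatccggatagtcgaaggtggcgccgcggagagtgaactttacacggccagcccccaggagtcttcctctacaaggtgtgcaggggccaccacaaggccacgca

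Rcan1, the feedback inhibitor, had 8 JUN regions with 1030 reads in TGF and 535 in siHK1 (-0.05, interval -0.21 to 0.10), and no region was called. Of the annotated start sites of the gene on chromosome 16, JUN regions lay within 1 kb of an inner one at 92400077, from which the shorter, NFAT-responsive transcript is made, and of an outer one at 92466146, from which a long transcript is made. The other start sites, at 92458475 and, outermost, at 92470867, had none within 1 kb. The region over the inner start site had 243 and 140 reads (0.10, interval -0.21 to 0.40), and the one next to it inside the gene had 194 and 121 (0.21, interval -0.13 to 0.55). At the outer start site the regions had 40 against 22 reads (0.04) and 50 against 19 (-0.48, interval -1.35 to 0.28). The inner start site thus carried several times more JUN reads than the outer one in both libraries. Both promoters, 250 bases up to the start site from RefSeq, are shown on the minus strand because they differ in motifs.
Inner promoter, chr16:92400079-92400328, GRCm38.p6: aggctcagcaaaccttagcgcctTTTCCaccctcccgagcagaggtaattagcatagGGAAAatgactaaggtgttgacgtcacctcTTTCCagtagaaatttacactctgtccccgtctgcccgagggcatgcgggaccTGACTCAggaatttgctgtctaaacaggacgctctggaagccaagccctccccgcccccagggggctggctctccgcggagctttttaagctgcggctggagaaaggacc
Outer promoter, chr16:92466170-92466419, GRCm38.p6: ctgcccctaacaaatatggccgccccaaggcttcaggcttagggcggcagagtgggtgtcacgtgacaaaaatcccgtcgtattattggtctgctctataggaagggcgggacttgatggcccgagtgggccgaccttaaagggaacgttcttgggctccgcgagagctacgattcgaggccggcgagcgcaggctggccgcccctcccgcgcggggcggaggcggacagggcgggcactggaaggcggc
The inner promoter holds 1 AP-1 motif and 3 NFAT cores, and the outer one holds neither. Of 32851 promoters in the table, 4.46% hold the AP-1 motif and 55.6% the NFAT core in the same 250 bases. In the table, 8 of the 10 members had a promoter. NFATC2 itself gave few reads here: its region of most reads at Rcan1 lay 0.883 kb inside the inner start site, with 11 reads in TGF and 3 in siHK1 (-1.02, interval -3.66 to 0.75), which is under 10 reads after scaling.

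Of the calcineurin subunit genes, Ppp3ca had 22 JUN regions with 828 and 450 reads (0.01, interval -0.16 to 0.18). This flat sum held 4 lower regions, from 27 to 6 reads (-1.19), 30 to 5 (-1.58), 23 to 3 (-1.86) and 60 to 15 (-1.07), and 2 higher ones, from 9 to 10 (1.04) and 5 to 11 (1.96). All of these regions hold few reads, the higher ones the fewest, and the intervals of the first lower one (-2.84 to 0.03) and of the first higher one (-0.41 to 2.52) include 0. Its region of most reads, in an intron 6.20 kb inside the gene, had 137 and 70 reads (-0.07, interval -0.51 to 0.35), and its start site 70 and 43 (0.20). Ppp3cb had 92 against 38 reads over 2 regions (-0.37, interval -0.97 to 0.18), of which 64 and 22 lay over its start site (-0.63). Ppp3r1 had 73 against 32 over 3 regions (-0.29, interval -0.95 to 0.32), with 31 and 12 over its start site (-0.44). Dyrk1a had 13 regions with 701 and 382 reads (0.02, interval -0.17 to 0.20), of which the strongest, in an intron, had 257 and 115 (-0.26) and a weak one was higher, from 13 to 16 (1.18).

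After scaling, JUN reads near annotated start sites summed to nearly equal levels in the libraries. The 17 member regions that the deposited annotation places within 1 kb of a start site had 1136 reads in TGF and 617 in siHK1 (0.01, interval -0.13 to 0.15). Of these, 3 regions were placed at other annotated transcripts and lay far from a protein-coding start site of their gene, 98.2 kb at Nfatc1, 163 kb at Ppp3ca and 43.0 kb at Ppp3cb. None of the 17 was called, where 5.83% of all such regions with at least 10 reads were lower and 4.80% higher. The other 84 had 7499 and 3405 reads (-0.25, interval -0.31 to -0.19), and of the 78 with at least 10 reads 11 were lower (14.1%, against 8.84% of all) and 6 higher (7.69%, against 5.80%). Nfatc2 made most of that difference: without it the other regions had 3734 and 1931 reads, a ratio of -0.06 (interval -0.14 to 0.02), and those near start sites stayed at 0.01. Pooled over all genes the ratio was 0.01 near annotated start sites and 0.00 elsewhere.

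**Figure D3:**
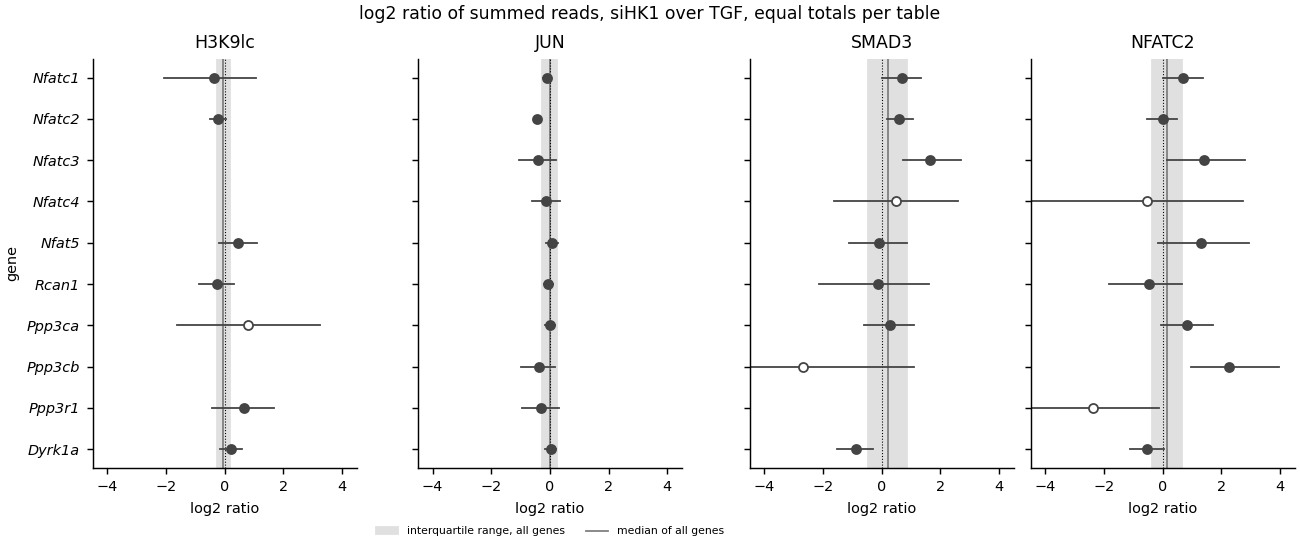
log2 ratio of summed reads of siHK1 over TGF for each member gene and antibody, with 95% counting intervals, open circles for genes under 10 reads, and grey bands for the interquartile range of all genes with at least 10 reads. For JUN only Nfatc2 (-0.45) has an interval that leaves out 0, and the SMAD3 and NFATC2 intervals are wide, with Nfatc3 above 0 in both panels (1.66 and 1.41) and Ppp3cb above 0 for NFATC2 (2.28).

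SMAD3, the transcription factor that carries TGF-β signals to the nucleus, was listed at 9 members (not Ppp3r1) in 50 regions, with 286 reads in TGF against 246 in siHK1. The pooled log2 ratio was 0.28 (interval 0.03 to 0.53), and the median over the genes was 0.27, against 0.20 over all genes. The median region held 4 reads in each library, and 13 of 50 regions reached 10 reads. Of these 13, 2 were lower (15.4%, against 13.8% of all such regions) and 4 were higher (30.8%, against 30.2%). A peak was called in both libraries at 3 regions, or 6.0% against 4.98% of all. Among genes, 1 member of 7 with at least 10 reads was higher and none lower, where 21.0% and 10.6% of all genes were.

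The higher gene was Nfatc3, with 14 reads in TGF and 32 in siHK1 (1.66, interval 0.74 to 2.71). Nearly all came from the region over its start site, with 11 and 29 reads (1.85, interval 0.85 to 3.04). At the start site of Ppp3ca SMAD3 had 2 reads in TGF and 9 in siHK1 (2.42, interval 0.39 to 5.91), and at the outer start site of Nfatc2 1 and 5, too few to be called. The start site region of Dyrk1a went the other way, with 8 reads in TGF and 0 in siHK1 (interval below -0.28), as did one of Ppp3cb, 42.8 kb from its protein-coding start site, with 4 and 0 (interval below 1.09). The last of the 6 member regions within 1 kb of an annotated start site, at Nfatc1 and 98.6 kb from a protein-coding one, had 1 and 6 reads. The upstream Nfat5 region shown above had 6 and 9 reads (1.04, interval -0.57 to 2.85), and an intronic Nfatc1 region 70.8 kb inside the gene had 3 and 8 (1.78, interval -0.15 to 4.46). In the whole SMAD3 table, regions within 1 kb of a start site were higher in siHK1 as a class: their median log2 ratio was 1.03, and 51.0% of the 2565 with at least 10 reads were higher, against 0.03 and 24.6% of all other regions. The 6 member regions of this class pooled to 1.34 (27 and 49 reads, interval 0.65 to 2.09), with most of these reads at Nfatc3, and 2 of them reached 10 reads. Of the 4 higher SMAD3 regions only that of Nfatc3 had a peak in both libraries, and the other 3 had a peak in siHK1 only. Nfatc1 (37 and 42 reads, 0.68) and Nfatc2 (84 and 91 reads, 0.61, interval 0.17 to 1.06) were also above 0, within the interquartile range of all genes. Their regions of most reads were intronic and had 9 and 10 reads (0.64, interval -0.81 to 2.12) at Nfatc1 and 28 and 21 (0.09, interval -0.81 to 0.95) at Nfatc2. As genes, Ppp3ca had 27 and 23 reads (0.27), Nfat5 24 and 16 (-0.08), Rcan1 8 and 5 (-0.13) and Nfatc4 5 and 5, and the regions of most reads of Rcan1 and Nfatc4 had 7 and 3 and 4 and 4 reads.

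Dyrk1a went the other way for SMAD3, with 83 reads in TGF and 32 in siHK1 (-0.87, interval -1.52 to -0.28), and 13.2% of genes with at least 10 reads had a ratio below that. Both lower SMAD3 regions of the pathway were at Dyrk1a, an intronic region 105 kb inside the gene with 45 and 11 reads (-1.49, interval -2.64 to -0.56) and another 59.1 kb inside with 18 and 5 (-1.26, interval -3.14 to 0.13). Both regions had a peak in TGF only, so they were listed through the library where they are high. Of all SMAD3 regions with at least 10 reads, 39.1% of those with a peak in TGF only were lower, against 2.9% of those with a peak in both libraries. JUN and NFATC2 listed regions at the same places. At the first, JUN had 37 and 13 reads (-0.58) and NFATC2 40 and 14 (-0.78, interval -1.81 to 0.09). No NFATC2 region of any member held more reads over both libraries after scaling. At the second, JUN had 15 and 9 reads (0.19) and NFATC2 12 and 7 (-0.04), both within 2-fold. The centre of the NFATC2 region at the first place, 105 kb inside the gene, is shown because its sequence is a tandem repeat.
chr16:94676368-94676567, plus strand, GRCm38: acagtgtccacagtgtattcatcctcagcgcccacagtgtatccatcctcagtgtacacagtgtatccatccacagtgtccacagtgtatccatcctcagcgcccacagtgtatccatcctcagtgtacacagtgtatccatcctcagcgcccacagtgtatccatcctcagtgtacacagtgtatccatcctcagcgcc
This stretch holds neither motif. In the SMAD3 region that overlaps it, 92.4% of the bases equal the base 48 bp further on, and in the region 59.1 kb inside the gene 93.3% equal the base 26 bp further on. A region is called a tandem repeat here where the share at the best distance from 5 to 100 bp is above 50%, a limit set after the values were seen. By that limit 5 of the 13 SMAD3 member regions with at least 10 reads were tandem repeats (38.5%, against 31.5% of all such regions), as were both lower ones (48.7% of all lower regions). Without tandem repeats Dyrk1a had a SMAD3 ratio of 0.18, and the pooled SMAD3 ratio was 0.56. How reads that match several copies were placed is not given in the sources used here, and its part in the result was not tested.

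**Figure D4:**
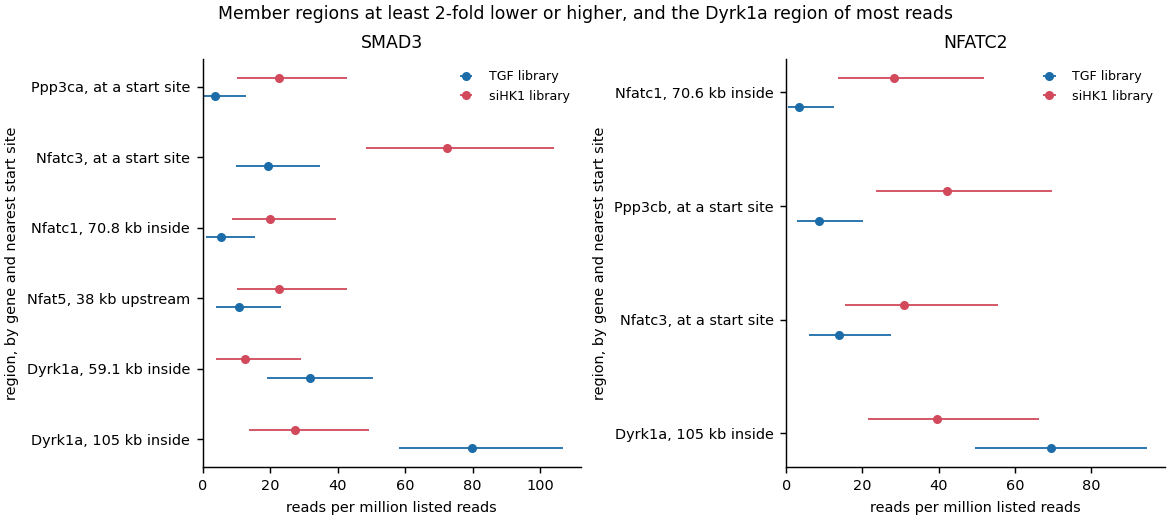
SMAD3 and NFATC2 reads, scaled to the total of listed reads, at every member region called lower or higher, and at the Dyrk1a region with most reads, with exact 95% Poisson intervals. The regions at the start sites of Nfatc3, Ppp3ca and Ppp3cb were higher in siHK1, and those inside Dyrk1a, which are tandem repeats, were lower or within 2-fold.

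NFATC2 was listed at all 10 members, in 65 regions with 291 reads in TGF against 208 in siHK1. The pooled log2 ratio was 0.22 (interval -0.05 to 0.48), and the median over genes was 0.35, against 0.21 over all genes. The median region held 3 reads in each library, and 10 regions reached 10 reads. None of them was lower (12.7% of all such regions were) and 3 were higher (30.0%, against 13.7%). A peak was called in both libraries at 4 regions, or 6.15% against 3.61% of all. Of the 8 members with at least 10 reads 3 were higher and none lower, where 14.3% and 7.39% of all genes were.

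The higher genes were Ppp3cb, Nfatc3 and Nfat5. Ppp3cb had 6 reads in TGF and 19 in siHK1 (2.28, interval 0.98 to 3.98), mostly over its start site with 5 and 15 (2.19, interval 0.75 to 4.10). Of all genes with at least 10 reads, 98.5% had a lower ratio. Nfatc3 had 9 and 15 reads (1.41, interval 0.15 to 2.81), again mostly next to its start site with 8 and 11 (1.14, interval -0.29 to 2.68). Nfat5 had 7 and 11 (1.32, interval -0.15 to 2.96), its upstream region 7 and 5 of these (0.25), so that its call rests on the other 2 regions, with 0 and 2 and 0 and 4 reads. Both Ppp3cb regions, all 3 Nfatc3 regions and these 2 Nfat5 regions had a peak in siHK1 only, so they were listed through the library where they are high. Of all genes' NFATC2 regions, 45.4% of those with a peak in siHK1 only and at least 10 reads were higher, against 3.99% of those with a peak in both libraries, and all 3 higher member regions had a peak in siHK1 only. A region of Nfatc1 70.6 kb inside the gene had 2 and 10 reads (2.77, interval 0.79 to 6.25), and it overlaps the Nfatc1 region that was higher for SMAD3. The Nfatc1 region of most reads had 8 and 9 (0.86, interval -0.68 to 2.44). For NFATC2, regions within 1 kb of a start site did not stand apart in the whole table, with a median of 0.05 and 14.0% higher. At its own gene, NFATC2 had 85 reads in TGF and 52 in siHK1 over 14 regions (0.00, interval -0.54 to 0.50), the strongest with 13 and 9 (0.19). One of these regions, 98.3 kb inside the gene, had 12 reads in TGF and 0 in siHK1 (interval below -0.78), under 10 reads after scaling. Ppp3ca had 22 and 24 reads over 15 regions (0.82, interval -0.07 to 1.73), and its region of most reads, beyond the 3′ end of the gene, had 1 and 4. Ppp3r1 was under 10 reads after scaling, with 12 in TGF and 1 in siHK1 (-2.36, interval -8.30 to -0.13), and it was the only member with an interval below 0 for NFATC2. Of these reads its region of most reads held 6 and 1. Nfatc4 had 3 and 1 reads. Rcan1 had 21 and 9 over 4 regions (-0.48, interval -1.83 to 0.66). Dyrk1a had 87 and 37 (-0.52, interval -1.13 to 0.04), and without its tandem repeats -0.44.

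The centre of the SMAD3 region at the Nfatc3 start site is shown because the NFATC2 region that was also higher in siHK1 overlaps it. These 200 bp hold neither the AP-1 motif nor the NFAT core. The whole SMAD3 region holds 2 NFAT cores, and the NFATC2 region, which is centred farther upstream, holds 1 in its own central 200 bp.
chr8:106059305-106059504, plus strand, GRCm38: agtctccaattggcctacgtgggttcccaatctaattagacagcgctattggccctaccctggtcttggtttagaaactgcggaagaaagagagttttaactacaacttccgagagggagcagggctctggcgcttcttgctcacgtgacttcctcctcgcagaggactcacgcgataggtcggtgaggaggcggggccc

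H3K9lc was listed at 7 members in 32 regions, with 639 reads in TGF against 360 in siHK1. Nfatc3, Nfatc4 and Ppp3cb had no listed region. The pooled log2 ratio was -0.02 (interval -0.21 to 0.17), and the median over genes was 0.22, against -0.05 over all genes. That median turned to -0.26 without tandem repeats and to -0.07 without the region of most reads of each gene. None of the 32 regions lay within 1 kb of a start site in the deposited annotation. Of the 24 regions with at least 10 reads 1 was lower (4.17%, against 7.85% of all) and 2 were higher (8.33%, against 6.57%). A peak was called in both libraries at 6 regions, or 18.8% against 20.8% of all. No member was called as a gene, where 2.90% of all genes with at least 10 reads were lower and 2.99% higher.

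Nfatc2 held the most H3K9lc reads, 332 in TGF and 163 in siHK1 over 14 regions (-0.21, interval -0.49 to 0.06). Of these, 7 regions lay beyond the 3′ end, among them the strongest, with 70 and 29 reads (-0.45, interval -1.14 to 0.18), and the lower one, with 33 and 9 (-1.01, interval -2.31 to 0.03). Dyrk1a had 145 and 96 reads (0.22, interval -0.17 to 0.60), and its region of most reads in siHK1 was higher, with 27 and 32 (1.05, interval 0.27 to 1.85). That region lay 167 kb from the nearest protein-coding start site of Dyrk1a, beyond the 3′ end of the gene. Of the Dyrk1a regions only the one 59 kb inside, with 13 and 5 reads, lay within the gene. Rcan1 had 76 and 36 reads (-0.26, interval -0.88 to 0.32), the strongest region, 2.94 kb upstream of the outermost start site, with 35 and 11 (-0.81, interval -1.98 to 0.15). Nfat5 had 50 and 39 (0.46, interval -0.19 to 1.09), of which 31 and 20 lay in a region 44.0 kb upstream (0.19), Ppp3r1 18 and 16 (0.65), Nfatc1 14 and 6 (-0.35) and Ppp3ca 4 and 4. The other higher region, 25.7 kb upstream of Ppp3r1, had 8 and 12 reads (1.37, interval -0.01 to 2.89). It had a peak in siHK1 only and the lower Nfatc2 region in TGF only, so each was listed through the library where it is high. The higher Dyrk1a region had a peak in both. Of all H3K9lc regions with at least 10 reads, 14.4% with a peak in TGF only were lower, against 0.297% with a peak in both. Of those with a peak in siHK1 only 36.1% were higher, against 1.26%. Both higher regions are tandem repeats, with 92.4% and 65.5% of bases repeated at 36 and 23 bp, and without tandem repeats Dyrk1a was at -0.01 and Ppp3r1 at -0.41. Tandem repeats made up 25% of the member regions with at least 10 reads, against 7.40% of all.

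In the comparison of TGF with NC, the 7 members with a region had 18 reads in NC and 529 in TGF over 28 regions, and the pooled log2 ratio of TGF over NC was 0.52 (interval -0.12 to 1.32). It was -0.15 without Nfatc2, and 1.34 with regions of a peak in both libraries brought to a median ratio of 1. No region reached 10 reads after scaling, since NC held so few reads. None of the 28 had a peak in both libraries, against 1.60% of all regions. Nfatc2 was the only member with enough reads as a gene, with 6 reads in NC and 304 in TGF over 12 regions (1.23, interval 0.20 to 2.80), and it was called higher, as were 9.49% of all genes with at least 10 reads. All 12 of its regions had a peak in TGF only, as did 85.9% of all regions of the table, so they were listed through the library where they are high. The regions of most reads after scaling, which gives each NC read more weight, had 1 and 69 reads at Nfatc2, 2 and 39 at Dyrk1a, 2 and 35 at Rcan1, 2 and 15 at Nfat5 and 2 and 2 at Nfatc1. In raw reads another region led at Nfat5, with 0 and 27, and at Nfatc1, with 1 and 14. The other members ranged from 0 to 3 reads in NC: Dyrk1a had 3 against 93 (0.42), Rcan1 2 against 58 (0.23), Nfat5 3 against 46 (-0.59), Nfatc1 3 against 16 (-2.09), Ppp3r1 0 against 10 and Ppp3ca 1 against 2. The TGF H3K9lc library is the same in this comparison and in that with siHK1: all 44088 regions listed in both tables, 17 of them at members, have equal reads. The ratios of the 2 comparisons therefore share that library, and for Nfatc2 they were 1.23 for TGF over NC and -0.21 for siHK1 over TGF.

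Overlap between antibodies was counted for the member regions. Of the 32 H3K9lc member regions, 4 overlapped a JUN region by at least 1 bp (12.5%, against 5.92% of all H3K9lc regions), 4 an NFATC2 region (12.5%, against 6.58%) and 1 a SMAD3 region (3.12%, against 6.50%). These overlaps came from 6 regions of Nfatc2 and Dyrk1a, of which 4 are tandem repeats. Of the SMAD3 member regions 40.0% overlapped JUN (20 of 50, against 23.0% of all), and of the NFATC2 member regions 24.6% did (16 of 65, against 16.7%). Seen from JUN, 18.8% of the 101 member regions overlapped SMAD3 and 14.9% NFATC2, against 18.1% and 15.4% of all JUN regions. An AP-1 motif was found in the central 200 bp of 28.7% of the JUN member regions, against 24.1% of all JUN regions, and an NFAT core in 56.4%, against 47.6%. For the NFATC2 antibody, 38.5% of member regions held an NFAT core, against 42.9% of all its regions. For H3K9lc these shares were 31.2% and 40.9%. A match is a string of letters and no sign of binding.

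A list of 33 other genes of the calcium, calcineurin and NFAT pathway was read in the same way. For JUN 29 had at least 10 reads and none was lower or higher (2.91% and 2.47% of all genes were), with a median of 0.07. For H3K9lc 1 of 17 was higher (5.88%, against 2.99% of all genes) and none lower. It was Akap1, a mitochondrial anchor that binds calcineurin (14 and 18 reads, 1.16). For SMAD3 5 of 25 were higher (20%, against 21.0% of all genes) and 2 lower (8.0%, against 10.6%), near the share of all genes. The higher ones were Calm2, a calmodulin gene (12 and 32 reads, 1.87, interval 0.91 to 3.0), Gsk3a, a kinase that phosphorylates NFAT (3 and 12, 2.33), Homer3 (5 and 16, 2.08), Rcan2 (23 and 38, 1.21) and Stim1, the calcium sensor of the endoplasmic reticulum (4 and 9, 1.57). The lower ones were Mapk8 (13 and 4, -1.09) and the calcineurin subunit gene Ppp3cc (20 and 6, -1.16). For NFATC2 3 of 24 were higher and 3 lower (12.5% each, against 14.3% and 7.39% of all genes). The higher ones were Akap1 (13 and 20, 1.30), Csnk1a1 (8 and 13, 1.37) and Ppp3cc (4 and 11, 2.05), and the lower ones included Akap5 (14 and 2, -1.84) and Dyrk1b (13 and 3, -1.25). For TGF over NC 1 of 6 was higher (16.7%, against 9.49% of all genes), the calcium release channel gene Itpr2, with 4 reads in NC and 334 in TGF (1.89, interval 0.69 to 3.94).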

How the data were processed

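CUT&Tag reads of 9 of the 10 libraries were used. The library titled TGF has no antibody in its labels, was placed in no group and was not used. The counts are the reads that the authors found in each region of each library, as deposited, beside a deposited 0 or 1 mark for a peak called there. The normalized log2 values that the authors deposited served only as an alternative. The deposited ratios, p-values and calls of the authors' own comparisons were not used. The submitters' processing notes name mm10 and BWA 0.7.12, whereas the study's methods name GRCm39, Bowtie2 and MACS2. The tables' transcript coordinates were the same as in GENCODE vM21 (GRCm38) for all 17995 transcripts of the H3K9lc table found there and likewise in the other tables, so positions are given on GRCm38, counted from 1.

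The members and lists were chosen with earlier results of these data known. All members are named; per member and table, the text gives the region of most reads after scaling and the regions at least 2-fold lower or higher with at least 10 reads, and further regions where they help to place these. Reads were summed per gene and scaled to equal totals over the listed regions of a table. Ratios used a pseudocount of 0.5. Intervals of ratios are exact conditional binomial (Clopper-Pearson) and those of sums exact Poisson, at 95%. With 1 library per condition no test was made. Python 3.11.15, pandas 2.3.3, scipy 1.17.1 and matplotlib 3.10.9 were used, and the ratio and interval code was tested on simulated data. Promoter sequences are from RefSeq. Alternatives were other scalings, pseudocounts, read minimums, sets of regions, overlap rules and motif windows. The values of 1 gene of the pathway list are not reported here.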

Additional observations from a re-analysis of the deposited data

How the results depend on the processing

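No paired analysis was possible because there was 1 library for each antibody and condition, and for the same reason no replicate could be left out. With no scaling, the pooled log2 ratios became -0.83 for H3K9lc, -1.10 for JUN, -0.22 for SMAD3 and -0.48 for NFATC2 (both of the opposite sign) and 4.84 for TGF over NC, which hold the difference in totals, and the all-gene medians moved to -0.86, -0.90, -0.30, -0.49 and 4.38. With regions of a peak in both libraries brought to a median ratio of 1, JUN was -0.29 and TGF over NC 1.34. With only regions within 3 kb of a start site, SMAD3 was 1.26 and NFATC2 0.78. H3K9lc was -0.68 there, from 2 regions of Rcan1 alone, with 11 and 5 and with 35 and 11 reads. Alternatives chosen after seeing the data were leaving out Nfatc2, which gave 0.17 for H3K9lc, -0.04 for JUN and -0.15 for TGF over NC, leaving out tandem repeats, which gave 0.56 for SMAD3 and turned Dyrk1a there to 0.18, and totals without the 10 regions of most reads.

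Counts of lower and higher regions depended on the read minimum where reads were few. For H3K9lc the count of lower regions was 2 at a minimum of 5 or none and 10 with no scaling, and that of higher regions 1 at a minimum of 20 or with the authors' log2 values and 0 with no scaling. For JUN it was 47 lower and 1 higher with no scaling, and 3 higher with the authors' log2 values. For SMAD3 there were 5, 1 and 10 lower and 14, 1 and 20 higher at a minimum of 5, of 20 and none. For NFATC2 there were 4 lower at a minimum of 5, 16 with none and 1 with no scaling, and 5, 0 and 30 higher at a minimum of 5, of 20 and none. For TGF over NC 8 lower and 4 higher appeared with no minimum. No member region of TGF over NC reached 10 reads, so that alternative gave no value there. For single genes, 395 of 434 alternative values lay inside the counting interval of the reported value and 37 had the opposite sign, 10 of them with no scaling. Why values moved was not tested beyond what each alternative leaves out.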
